A study of Mus musculus with 12 samples.

Results

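The genes described are 6 members of the interleukin-1 (IL-1) system: the ligands Il1a, Il1b, Il1rn and Il18, the soluble inhibitor Il18bp and the receptor subunit Il1rap. They were taken by gene symbol from a table of 31719 genes, and all 6 were found in it. RNA-seq was done on RAW264.7, a macrophage-like line established from a mouse tumour, in 4 groups of 3 libraries. Cells received LPS together with an antibody against CD36 (LPS+anti-CD36), LPS alone, the anti-CD36 antibody alone, or neither (untreated). LPS, a bacterial cell wall component sensed through TLR4, was given at 50 ng/ml and the antibody at a dilution of 1 in 100. All groups carried the wild-type genotype of the line, and CD36 is a scavenger receptor of macrophages. There was no group with an isotype control antibody, the labels give no treatment time, and a single line was used, so the groups compare treatments of that line only.

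Il1a and Il1b encode the agonists IL-1α and IL-1β, which bind the receptor IL-1R1 and draw in its accessory chain, encoded by Il1rap, to signal through MyD88 and IRAK kinases. Il1rn encodes the receptor antagonist, which occupies the same receptor without recruiting the accessory chain. Il18 encodes a related cytokine that is stored as a precursor, and Il18bp encodes a secreted decoy that binds IL-18. IL-1β and IL-18 are cut from their precursors by caspase-1 in inflammasomes, a step that mRNA levels do not show, and macrophages are a main source of both.

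Il1a and Il1b lie beside each other on chromosome 2 of the mouse, on the minus strand at 129299610 to 129309972 and 129364570 to 129371139 (GENCODE M21, GRCm38). Il1rn lies on the plus strand of the same chromosome at 24336853 to 24351494. Il18 is on chromosome 9 (50554827 to 50581840, plus strand), Il18bp on chromosome 7 (102014885 to 102018690, minus strand) and Il1rap on chromosome 16 (26581704 to 26730117, plus strand). The promoters below are those of the 4 ligand genes whose levels moved with LPS, shown because their responses differed widely in size. They are the 250 bases before a RefSeq transcription start (GRCm38.p6), 5′ to 3′ on the gene's own strand, with motif matches in capitals. Il1rn has 3 RefSeq starts, of which 2 are shown, and a gene-level value cannot separate its isoforms.
Il1b, chr2:129371140-129371389, minus strand: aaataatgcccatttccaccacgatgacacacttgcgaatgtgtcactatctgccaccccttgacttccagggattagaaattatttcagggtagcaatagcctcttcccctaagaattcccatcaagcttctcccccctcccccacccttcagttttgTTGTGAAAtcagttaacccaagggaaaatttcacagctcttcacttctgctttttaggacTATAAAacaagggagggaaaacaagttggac
Il1a, chr2:129309973-129310222, minus strand: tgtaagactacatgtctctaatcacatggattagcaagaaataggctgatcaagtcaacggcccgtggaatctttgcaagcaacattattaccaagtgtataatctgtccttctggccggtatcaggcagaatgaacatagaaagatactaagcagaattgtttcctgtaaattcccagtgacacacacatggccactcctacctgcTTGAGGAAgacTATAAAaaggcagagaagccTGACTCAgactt
Il1rn, upstream start, chr2:24336610-24336859, plus strand: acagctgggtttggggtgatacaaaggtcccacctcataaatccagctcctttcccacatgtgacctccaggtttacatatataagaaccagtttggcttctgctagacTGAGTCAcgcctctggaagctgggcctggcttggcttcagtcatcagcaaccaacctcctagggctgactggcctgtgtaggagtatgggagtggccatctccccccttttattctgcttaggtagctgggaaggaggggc
Il1rn, second start, chr2:24345041-24345290, plus strand: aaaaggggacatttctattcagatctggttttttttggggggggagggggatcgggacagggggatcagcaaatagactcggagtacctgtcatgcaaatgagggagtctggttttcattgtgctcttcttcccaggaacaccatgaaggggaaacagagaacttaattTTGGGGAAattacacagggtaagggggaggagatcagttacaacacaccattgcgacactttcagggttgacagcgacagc
Il18, chr9:50554450-50554699, plus strand: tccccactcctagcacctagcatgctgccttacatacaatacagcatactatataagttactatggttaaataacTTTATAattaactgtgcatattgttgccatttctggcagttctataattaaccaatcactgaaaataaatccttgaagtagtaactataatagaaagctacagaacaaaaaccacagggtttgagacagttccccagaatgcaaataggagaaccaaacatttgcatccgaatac

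Motifs were searched on both strands in windows reaching from 250 bases before to 50 bases after each start. The TATA box, written TATAAA, began 31 bases before the Il1b start and 32 bases before the Il1a start, and 13.6% of 32851 mouse windows of the same length held one. In Il18 the same letters were on the other strand, 175 bases before the start, and for the third Il1rn start on the other strand 14 bases after it. A C/EBP-type match (TTNNGNAA, in 40.7% of windows) began 91 bases before the Il1b start, 43 before the Il1a start and 81 before the second Il1rn start. Others began 15 and 16 bases after the second Il1rn start, 161, 65 and 64 before the third, and 49 before the Il18bp start. In Il1a the C/EBP-type match overlapped a PU.1 core (GAGGAA, 28.3% of windows) that began 41 bases before the start. An AP-1 match (TGANTCA, 7.81% of windows) began 12 bases before the Il1a start. The upstream Il1rn start had an AP-1 match 141 bases before it. The NF-κB consensus was in 8.46% of all windows and in none of the members' windows, which says only that these letters are not there.

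The depths recovered from the FPKM values (fragments normalised to the length of the gene and to library size) ran from 30070450 to 54137810 fragments per library. Of 10 macrophage markers 9 reached 1 FPKM in every library, the exception being Mertk, and all 22 markers of T, B, NK, neutrophil, epithelial, fibroblast and endothelial cells stayed below 1 FPKM in every library. Of the 72 values of the 6 genes, 71 were whole numbers of fragments. The exception was Il1b in untreated replicate 2, whose value is the average of replicates 1 and 3, and it was treated as missing, so Il1b has 2 untreated values. All 6 genes passed the filter of 1 FPKM in at least 3 libraries. Il1a and Il1b did so only through the 6 libraries given LPS, and Il18bp through 1 LPS+anti-CD36 and 2 LPS libraries. Il1rap reached 1 FPKM in 2 LPS+anti-CD36 libraries, 3 LPS libraries and 1 untreated library. In RNA from whole cultures, a smaller number of expressing cells and less RNA per cell cannot be told apart.

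LPS reordered the 6 genes, and the antibody given with it raised the ligands further. With LPS, with or without the antibody, the order by mean FPKM was Il1b, Il1a, Il1rn, Il18, Il1rap and Il18bp. In anti-CD36 and untreated cells it was Il18, Il1rn, Il1rap, Il18bp, Il1b and Il1a. FPKM is per gene length, here 5535 exon bases for Il1rn, 1907 for Il1b and 1974 for Il1a. By summed fragments Il1rn was above Il1b and Il1a in both groups given LPS. It had 98373 against 57054 and 42987 with LPS, and 178820 against 143872 and 119283 with LPS+anti-CD36. Together the 6 genes took 0.371%, 0.385% and 0.424% of the summed FPKM in LPS+anti-CD36 libraries, against 0.199%, 0.236% and 0.265% in LPS libraries. The shares were 0.0107% to 0.0124% in anti-CD36 libraries and 0.00922% to 0.00997% in untreated libraries. Neighbours in the order that overlapped in their library values were Il1rap and Il18bp in LPS+anti-CD36 and in LPS cells and Il1a and Il1rn in LPS cells, and there were no others.

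**Figure D1:**
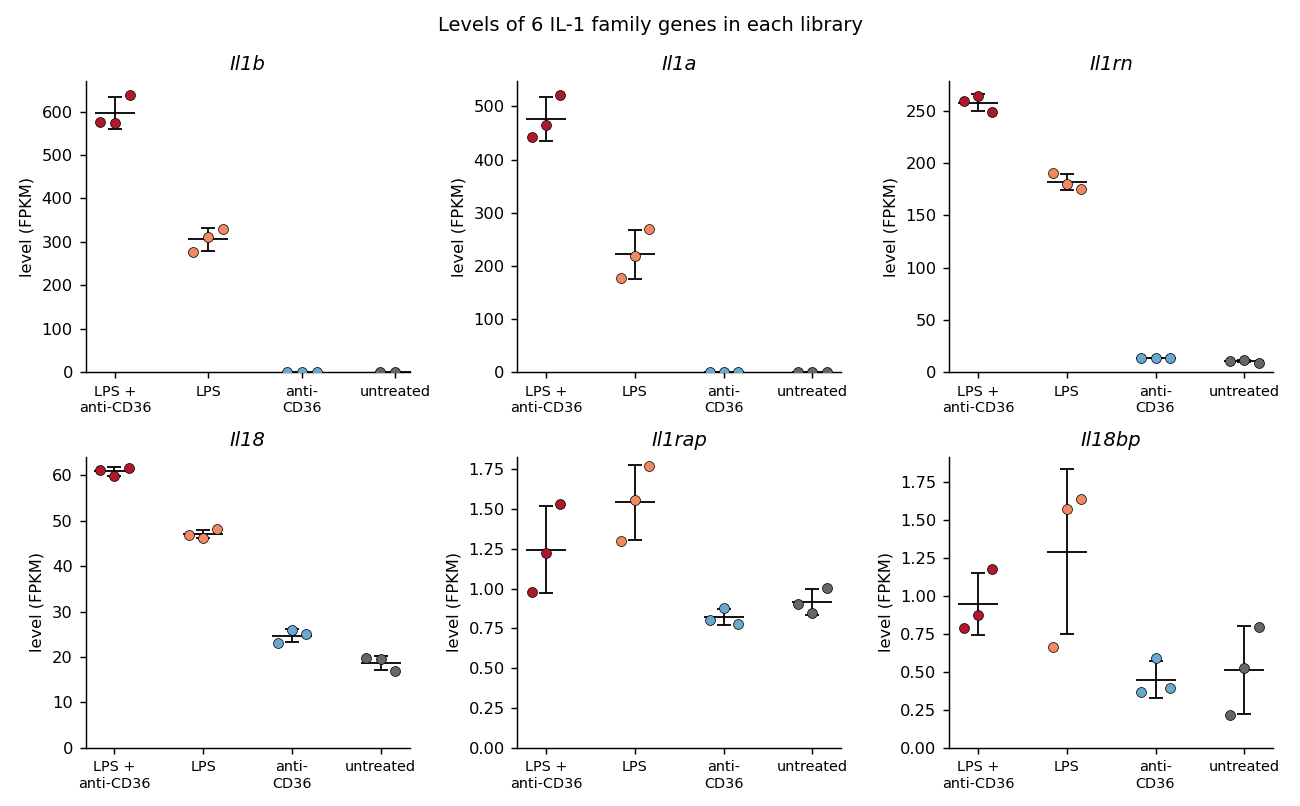
Level of each gene (FPKM, linear axis from 0, a separate scale per gene) in every library, with groups from left to right LPS+anti-CD36, LPS, anti-CD36 and untreated. Points are libraries, horizontal lines group means and bars SD (3 libraries, 2 for untreated Il1b). The 3 LPS+anti-CD36 libraries lie above the 3 LPS libraries for Il1b, Il1a, Il1rn and Il18 and overlap them for Il1rap and Il18bp.

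Adding the antibody to LPS raised all 4 ligand genes among the 6 and neither of the receptor-side genes. The 2 agonists about doubled, by 2.15-fold for Il1a and 1.95-fold for Il1b, while the antagonist Il1rn was 1.42-fold and Il18 1.29-fold higher, as ratios of mean FPKM. Il1rap and Il18bp did not pass the test. Of the 6 members 4 were called higher, and of all 10277 genes tested 7.35% were higher and 8.14% lower (15.5% called). The 6 genes were chosen with earlier results of these data known, so the count supports nothing beyond each gene's own values. The median log2 change was 0.43 over the 6 genes and 0.02 over all genes tested. The test here and below is limma's moderated test on log2(FPKM + 1), with p-values adjusted over all genes tested, and genes with an adjusted p under 0.05 count as called. These p-values measure only the spread between the libraries, which the labels do not say came from separate cultures.

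Il1b, the IL-1β precursor gene, stood at 576.4, 574.7 and 638.4 FPKM in the 3 LPS+anti-CD36 libraries, against 277.6, 311.4 and 328.5 FPKM in the 3 LPS libraries. Every LPS+anti-CD36 library was above every LPS library, as held for 19.7% of all genes tested. Its log2 change was 0.96 (95% interval 0.78 to 1.15, adjusted p = 5.86e-05). Il1a, whose product is active also as a precursor and acts as an alarm signal from dying cells, stood at 442.1, 465.7 and 521.7 FPKM with LPS+anti-CD36 and at 177.9, 218.2 and 270.0 FPKM with LPS. The groups did not overlap, and the log2 change was 1.12 (0.84 to 1.39, adjusted p = 0.0002). By mean FPKM these were the 89th and 116th most abundant of all genes in LPS+anti-CD36 cells and the 156th and 209th in LPS cells.

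Il1rn, the antagonist, had 259.6, 264.4 and 248.5 FPKM in LPS+anti-CD36 libraries and 190.7, 179.9 and 175.3 FPKM in LPS libraries. The groups were apart, with a log2 change of 0.50 (0.31 to 0.69, adjusted p = 0.00399). Il18 had 61.23, 59.82 and 61.68 FPKM with LPS+anti-CD36, against 46.92, 46.32 and 48.15 FPKM with LPS, again without overlap. Its log2 change was 0.36 (0.20 to 0.53, adjusted p = 0.0101). Without LPS replicate 2 the change of Il18 was 0.35 with an adjusted p of 0.0515, and scaled to TPM it was 0.25 with an adjusted p of 0.0663.

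Il1rap, the accessory chain of the IL-1 receptor, had 0.982, 1.226 and 1.531 FPKM in LPS+anti-CD36 libraries and 1.299, 1.556 and 1.772 FPKM in LPS libraries. The groups overlapped (log2 change -0.18, -0.40 to 0.04, adjusted p = 0.222), and the sign turned to 0.13 when the trend with GC content and length was removed. Il18bp, the IL-18 decoy, had 0.789, 0.878 and 1.175 FPKM with LPS+anti-CD36, against 0.664, 1.573 and 1.639 FPKM with LPS (log2 change -0.21, -0.61 to 0.19, adjusted p = 0.433). LPS replicate 1 was the lowest LPS library for Il18bp, and without it Il18bp was called lower, at -0.43 with an adjusted p of 0.0465. That library and LPS replicate 2 also set how many genes were called at all: 1592 with every library, 3980 without LPS replicate 1 and 583 without LPS replicate 2. Leaving out LPS replicate 3 gave 744 genes, and leaving out LPS+anti-CD36 replicates 1, 2 and 3 in turn gave 640, 591 and 849.

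The ligand genes did not keep their proportions between these groups. Il1rn over the sum of Il1a and Il1b was 0.255, 0.254 and 0.214 in LPS+anti-CD36 libraries, against 0.419, 0.340 and 0.293 in LPS libraries. Every LPS+anti-CD36 library was below every LPS library, so there was less antagonist mRNA per agonist mRNA with both agents. The ratio is of FPKM values, so its size depends on the gene lengths used, and it was not tested. In anti-CD36 cells Il1rn exceeded the agonists 72.8- to 158-fold, and in the 2 untreated libraries with an Il1b value 114- and 312-fold, on denominators of a few fragments. Il1b over Il1a was 1.30, 1.23 and 1.22 with LPS+anti-CD36 and 1.56, 1.43 and 1.22 with LPS, with the lowest values of the 2 groups level. Il18bp over Il18 stayed between 0.0108 and 0.0471 in all 12 libraries, and the ranges of the 4 groups overlapped.

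**Figure D2:**
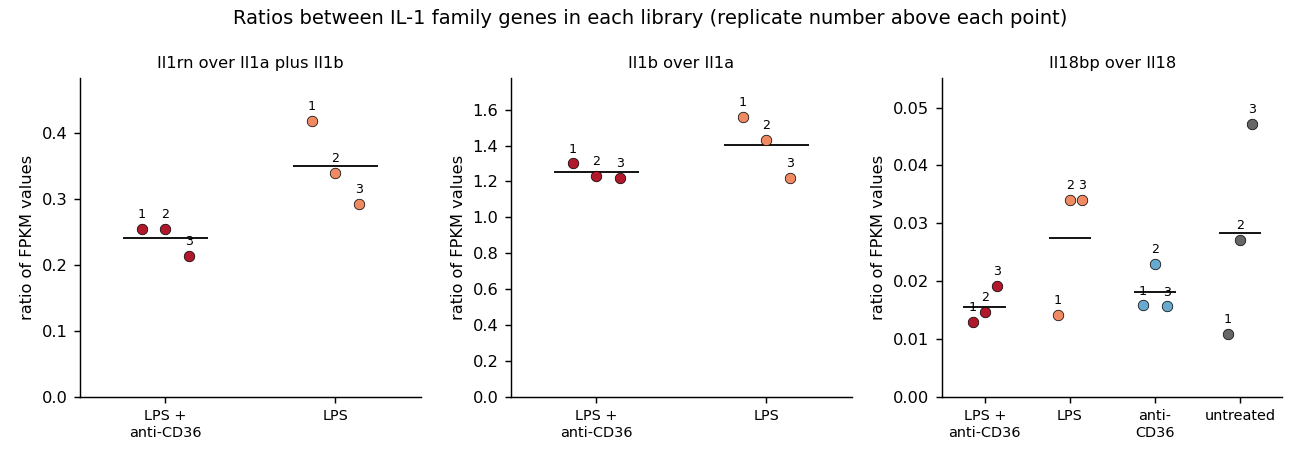
Ratios of FPKM values within each library (vertical axes from 0, no unit), with the replicate number above each point and the mean as a line. The left and middle panels show LPS+anti-CD36 left of LPS, and the right panel all 4 groups. Il1rn over Il1a plus Il1b lies at 0.214 to 0.255 in LPS+anti-CD36 libraries and at 0.293 to 0.419 in LPS libraries.

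LPS alone raised all 6 genes relative to untreated cells, over a very wide range of sizes. Il1a and Il1b were close to absent without it, Il1rn rose 17.2-fold, and Il18, Il18bp and Il1rap rose 2.52-, 2.52- and 1.68-fold. Of all 10276 genes tested, 49.8% were called (16.6% higher, 33.1% lower). Il1a, Il1b and, in part, Il18bp and Il1rap passed the filter through LPS libraries. The count of 6 is thus no support for anything beyond each gene's own values. The median log2 change was 2.64 over the members and -0.14 over all genes.

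Il1a had 177.9 to 270.0 FPKM in LPS libraries, against 0.0281, 0 and 0 FPKM in untreated libraries. That is 42987 fragments in the 3 LPS libraries against 3 in the 3 untreated libraries, a ratio per depth of 17642 (exact 95% interval 6036 to 85550, counting error only). Its log2 change was 7.77 (7.49 to 8.04, adjusted p = 8.48e-13), a value that the added 1 FPKM holds down. For Il1b there were 57054 fragments in the 3 LPS libraries against 9 in the 2 usable untreated libraries, at 0.0678 and 0.0290 FPKM. The ratio per depth was 5854 (3084 to 12804) and the log2 change 8.19 (7.98 to 8.40, adjusted p = 5.16e-13).

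Il1rn and Il18 were already present without treatment. Il1rn had 175.3 to 190.7 FPKM with LPS, against 10.93, 11.69 and 9.06 FPKM in untreated libraries (log2 change 3.99, 3.80 to 4.18, adjusted p = 1.57e-11). Il18 had 46.32 to 48.15 FPKM with LPS, against 19.71, 19.48 and 16.92 FPKM untreated (1.29, 1.12 to 1.46, adjusted p = 7.07e-08). In neither gene did the groups overlap. Il1rap had 1.299 to 1.772 FPKM with LPS and 0.904, 0.846 and 1.007 FPKM untreated (0.40, 0.18 to 0.62, adjusted p = 0.00587). Every LPS library was above every untreated library, as held for 16.7% of genes tested, while 32.9% had every LPS library lower. Il18bp had 0.664 to 1.639 FPKM with LPS and 0.214, 0.528 and 0.796 FPKM untreated, with overlap (0.59, 0.19 to 0.99, adjusted p = 0.0194). This call ended without LPS replicate 2 (adjusted p = 0.0781), LPS replicate 3 (0.074) or untreated replicate 1 (0.0812), and when the 2 groups were fitted alone (0.0699). Replicate 1 had the lowest Il18bp value in each of the 4 groups.

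Between LPS+anti-CD36 and anti-CD36 cells, both given the antibody, 5 of the 6 genes rose, against 47.5% of all genes called (16.3% higher, 31.3% lower). Il1a, Il1b, Il18bp and Il1rap reached the filter's 1 FPKM in no anti-CD36 library, so this count too supports nothing beyond each gene's own values. Il1b rose by 9.05 on the log2 scale (8.87 to 9.24, adjusted p = 8.78e-14) and Il1a by 8.89 (8.62 to 9.16, adjusted p = 2.21e-13). Il1b had 143872 fragments over the LPS+anti-CD36 libraries and 23 over the anti-CD36 libraries, a ratio per depth of 4903 (3268 to 7735). Il1a had 119283 fragments against 1, a ratio of 93501 with the very wide interval 16781 to 3693104. Il1rn was 18.7-fold higher (log2 change 4.13, adjusted p = 9.96e-12) and Il18 2.47-fold higher (1.27, adjusted p = 8.32e-08), close in size to their LPS responses without the antibody.

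Il1rap had 0.982 to 1.531 FPKM with LPS+anti-CD36 and 0.802, 0.876 and 0.780 FPKM with anti-CD36. It rose by 0.30 (0.08 to 0.52, adjusted p = 0.0298), and the groups did not overlap, as held upward for 21.6% and downward for 42.3% of genes tested. The Il1rap call ended without LPS+anti-CD36 replicate 2 (adjusted p = 0.0692) or 3 (0.13), without anti-CD36 replicate 1 (0.0697) or 3 (0.0843), and with TPM scaling (0.0724). Il18bp had 0.789 to 1.175 FPKM in LPS+anti-CD36 cells, all above the 0.365, 0.592 and 0.391 FPKM of anti-CD36 cells, yet missed the threshold (log2 change 0.42, 0.02 to 0.83, adjusted p = 0.0775). Settings in which it passed included the fit of the 2 groups alone (0.00839), median-of-ratios scaling (0.0439) and the fit without LPS replicate 1 (0.0214).

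The antibody alone changed none of the 6 genes past the threshold by limma, against 0.341% of all genes called (35 genes, 0.146% higher and 0.195% lower). At an unadjusted p under 0.05 the counts were 2 of the 6 members and 1969 genes. The 2 were Il18 and Il1rn. These and Il1b were higher in every anti-CD36 library than in every untreated library, as were 12.1% of all genes tested, while 10.5% were lower in every one. Il18 had 23.18, 25.84 and 25.09 FPKM in anti-CD36 libraries against 19.71, 19.48 and 16.92 FPKM in untreated libraries, 1.32-fold higher (log2 change 0.39, 0.22 to 0.55, adjusted p = 0.0659). Il1rn had 13.79, 13.75 and 13.75 FPKM, against 10.93, 11.69 and 9.06 FPKM untreated, 1.30-fold higher (0.36, 0.17 to 0.55, adjusted p = 0.111). Settings in which Il18 passed included the fits without LPS replicate 1 (adjusted p = 0.0407) and with the trend with GC content and length removed (0.0277).

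Both agonists stayed below 0.2 FPKM in every library given the antibody alone. Il1a had 0, 0 and 0.0166 FPKM in anti-CD36 libraries, that is 1 fragment in all, against 3 fragments over the untreated libraries (log2 change -0.01, -0.28 to 0.27, adjusted p = 0.983). A count of 0 allows up to 3 fragments, or 0.0400 and 0.0504 FPKM of Il1a in the 2 anti-CD36 libraries without any. Il1b had 0.110, 0.0870 and 0.172 FPKM, from 8, 5 and 10 fragments, against 0.0678 and 0.0290 FPKM, from 7 and 2 fragments, in untreated libraries. The ratio per depth was 2.34 (1.04 to 5.74), covering counting error only, and the log2 change was 0.10 (-0.11 to 0.31, adjusted p = 0.526). Il1rap had 0.802, 0.876 and 0.780 FPKM with the antibody (log2 change -0.08, -0.30 to 0.14), and Il18bp overlapped the untreated libraries (-0.05, -0.45 to 0.36). The number of genes called without 1 library lay between 1 (without anti-CD36 replicate 3, or without untreated replicate 2 or 3) and 131 (without LPS replicate 1).

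The interaction, the LPS change with the antibody minus the LPS change without it, was called for 2 of the 6 genes, against 1.28% of all genes (132 genes, 0.496% higher and 0.788% lower). It was 1.12 for Il1a (0.74 to 1.51, adjusted p = 0.00743) and 0.86 for Il1b (0.59 to 1.14, adjusted p = 0.00618). Both genes passed the filter only through libraries given LPS, so the count of 2 supports nothing beyond each gene's own values. Because both genes were near 0 FPKM in the groups without LPS, these values are close to the difference between LPS+anti-CD36 and LPS, with which they share libraries. They also depend on the scale. As ratios of fragments per depth, the LPS rise of Il1b was 4903 with the antibody (95% counting interval 3268 to 7735) and 5854 without it (3084 to 12804), and these intervals overlapped. With 0.1 in place of 1 added to the FPKM, Il1a was at 1.16 (adjusted p = 0.0306) but Il1b at 0.38 (adjusted p = 0.775), and with TPM scaling Il1a was at 1.02 (0.068) and Il1b at 0.61 (0.24).

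For Il1rn the interaction was 0.14 (-0.13 to 0.41, adjusted p = 0.997) and for Il18 -0.02 (-0.26 to 0.21, adjusted p = 1). Il18 was thus 0.36 higher with LPS+anti-CD36 than with LPS and 0.39 higher with anti-CD36 than untreated, on the log2 scale. The matching values of Il1rn were 0.50 and 0.36. Il1rap (-0.11, -0.42 to 0.21) and Il18bp (-0.16, -0.73 to 0.41) were not called either. The intervals of all 4 allow differences of at least 0.2 in size.

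**Figure D3:**
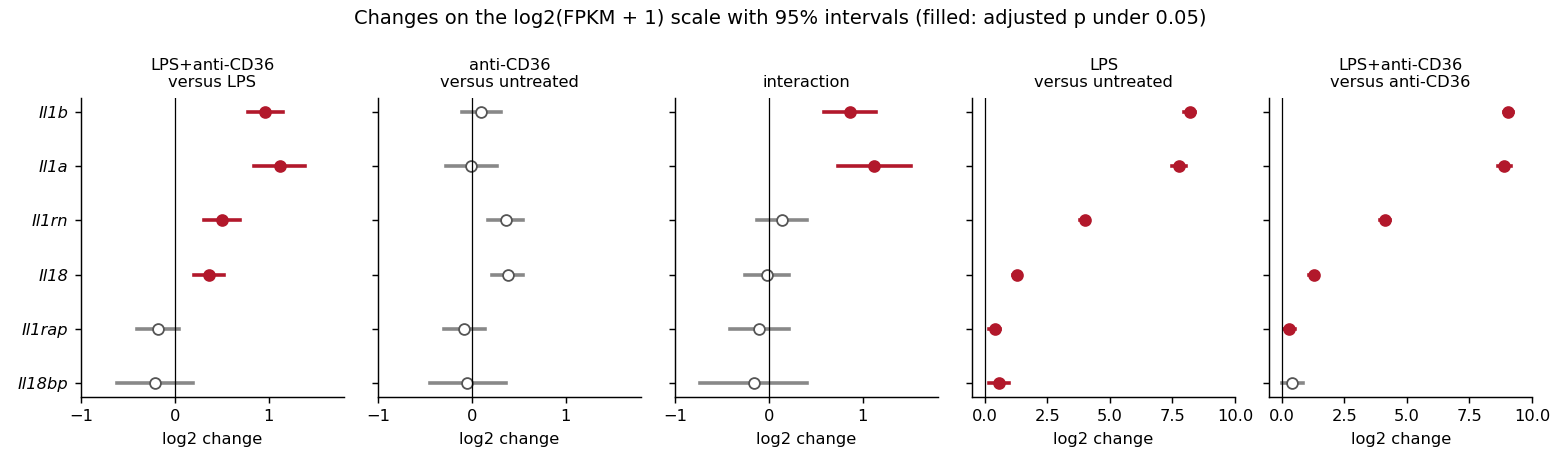
Change of each gene on the log2(FPKM + 1) scale (horizontal axes, the 3 panels on the left from -1 to 1.8) in the 4 comparisons and the interaction. Points are estimates and lines 95% intervals, filled and red where the adjusted p was under 0.05. With LPS+anti-CD36 versus LPS the 4 ligand genes lie right of 0, and in the interaction only Il1b at 0.86 and Il1a at 1.12 are filled.

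The genes whose pattern over the libraries was most like each member were found among 9738 named genes by the root-mean-square difference of centred log2(FPKM + 1) values. Il1b was closest to Il1a (0.18 over 11 libraries), then to Cxcl2, a neutrophil chemokine (0.30), and Csf3, which encodes the granulocyte growth factor G-CSF (0.41). For Il1a the order was Il1b (0.18 over the same 11 libraries), Cxcl2 (0.36 over 12) and Csf3 (0.56 over 12). The spread of Il1b and Il1a about their own means was 4.30 and 4.18 on the same scale. Cxcl2 averaged 1036 FPKM with LPS+anti-CD36, 424 with LPS, 1.29 with anti-CD36 and 0.359 untreated.

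Il1rn was closest to Slc15a3, a lysosomal peptide transporter (0.08), Rgs16, a regulator of G-protein signalling (0.14), and Phlda1 (0.17), against a spread of its own of 2.04. Slc15a3 averaged 65.4, 44.9, 3.00 and 2.09 FPKM in LPS+anti-CD36, LPS, anti-CD36 and untreated cells. Il18 was closest to Tnfrsf9, which encodes the costimulatory receptor 4-1BB (0.09), to Asns, asparagine synthetase (0.10), and to Dus2 (0.11), with a spread of 0.67. Tnfrsf9 averaged 3.43, 2.64, 0.902 and 0.524 FPKM in the same order of groups, and Il18 60.9, 47.1, 24.7 and 18.7 FPKM. At such low levels the added 1 FPKM shrinks changes, so Tnfrsf9 was like Il18 on this scale and not in ratios of FPKM. Il18bp was nearest to Nckap1l, Tec and Ercc5 (0.07 to 0.08), and Il1rap to Mbd5, Zfp287 and Trmt10a (0.06 to 0.08). With spreads of only 0.34 and 0.21, likeness to Il18bp and Il1rap says little.

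Among all 10 IL-1 family ligands of the mouse listed, 7 were tested and 3 (Il1f8, Il1f5 and Il1f10) were listed at 0 in every library. Of the 7, Il1f9 and Il33 reached 1 FPKM in the LPS+anti-CD36 libraries alone, and Il1a, Il1b and Il1f6 in libraries given LPS alone or with the antibody. The filter therefore fixed part of the count that follows, which supports nothing about the family. All 7 were called higher with LPS+anti-CD36 than with LPS (7.35% of all genes were), with LPS than untreated (16.6%) and with LPS+anti-CD36 than with anti-CD36 (16.3%). None was called by limma for the antibody alone (2 had an unadjusted p under 0.05, Il18 and Il1rn), against 0.341% of all genes. Il1f9 and Il33 were listed at 0 in every anti-CD36 and untreated library, so no call was possible for them. Il1a, Il1b and Il1f6 were at or near 0 FPKM there. The 3 ligands outside the 6 members were Il1f6, which encodes IL-36α, Il1f9, which encodes IL-36γ, and Il33, an alarm cytokine mostly made by barrier tissues.

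Il1f6 had 8.54, 8.04 and 8.76 FPKM in LPS+anti-CD36 libraries and 4.06, 3.31 and 2.41 FPKM in LPS libraries (log2 change 1.17, adjusted p = 0.000103). In anti-CD36 and untreated libraries it was at most 0.0753 FPKM. Il1f9 had 1.05, 1.24 and 1.10 FPKM with LPS+anti-CD36 and 0.263, 0.154 and 0.215 FPKM with LPS (0.81, adjusted p = 3.59e-05), and was listed at 0 in the 6 other libraries. Il33 had 1.35, 1.01 and 1.51 FPKM with LPS+anti-CD36 and 0.364, 0.594 and 0.654 FPKM with LPS (0.57, adjusted p = 0.00376), and was also listed at 0 elsewhere. In none of the 3 did LPS+anti-CD36 and LPS libraries overlap, while 19.7% of all genes tested lay apart in this direction. For Il1f9 and Il33 the filter fixed this, since they reached 1 FPKM in the LPS+anti-CD36 libraries alone. The interaction was called for Il1f6 (1.19, adjusted p = 0.00393) and Il1f9 (0.81, adjusted p = 0.0018), and with 0.1 FPKM added in place of 1 neither was (adjusted p = 0.124 and 0.0607).

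The receptor genes for these ligands ranged from at or near 0 FPKM to 23.3 FPKM, the value of Il1rl1 in LPS replicate 3. Il1r1, the signalling receptor for IL-1, was listed at 0 in all libraries but untreated replicate 2, at 0.0105 FPKM. The decoy receptor gene Il1r2 was at most 0.0697 FPKM, and Il18r1, the ligand-binding chain for IL-18, at most 0.0919 FPKM. Its partner chain Il18rap averaged 8.74 ± 1.24 FPKM with LPS+anti-CD36, 9.93 ± 3.09 with LPS, 7.89 ± 1.00 with anti-CD36 and 9.58 ± 2.62 untreated. Of 11 receptor and binding protein genes 5 were tested, the members Il1rap and Il18bp among them. None was called by limma between LPS+anti-CD36 and LPS (0 also at an unadjusted p under 0.05), against 15.5% of all genes. With 5 genes, a count of 0 is near that share and says little. Il1rl1, the IL-33 receptor, averaged 18.2 ± 0.97 FPKM with LPS+anti-CD36, 20.1 ± 3.83 with LPS, 7.55 ± 1.29 with anti-CD36 and 7.72 ± 1.29 untreated (SD, n = 3 each), and rose with LPS (log2 change 1.27, adjusted p = 2.83e-05). Sigirr, an inhibitory receptor of the family, averaged 2.92 ± 0.317 FPKM in LPS+anti-CD36 cells and 5.32 ± 0.631 FPKM in anti-CD36 cells. It fell in that comparison (-0.69, adjusted p = 0.000717). With LPS it averaged 3.25 ± 0.591 FPKM and untreated 3.99 ± 0.607 FPKM, which was not called (-0.23, adjusted p = 0.139). Its interaction was not called either (-0.45, adjusted p = 0.431).

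Of 20 genes for processing and release of IL-1β and IL-18, 15 were tested. Between LPS+anti-CD36 and LPS 1 was called, Txnip, which binds thioredoxin and has been tied to NLRP3 activation, at 80.9, 81.0 and 80.6 against 104, 111 and 109 FPKM. It fell by 0.42 on the log2 scale (adjusted p = 0.0136), a call that ended without LPS+anti-CD36 replicate 1 (0.0526) or 2 (0.0567) or LPS replicate 2 (0.064). Casp1, the converting protease, averaged 16.4 ± 1.52 FPKM with LPS+anti-CD36 and 15.3 ± 2.31 with LPS (adjusted p = 0.518), and the inflammasome sensor Nlrp3 46.7 ± 1.23 and 48.8 ± 1.08 FPKM (adjusted p = 0.66). Of all genes 15.5% were called there. Against untreated cells, LPS raised 5 and lowered 4 of the 15, a share near the 49.8% of all genes called. Nlrp3 rose by 1.94 (adjusted p = 1.1e-08), Casp4, which senses LPS inside cells, by 1.76 (3.08e-07), Casp1 by 0.71 (0.000244) and the pore-forming Gsdmd by 0.60 (0.000528). Pycard, the adaptor ASC that joins sensors to caspase-1 and that this line is known to lack, was at most 0.0875 FPKM in any library and was not tested.

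**Figure D4:**
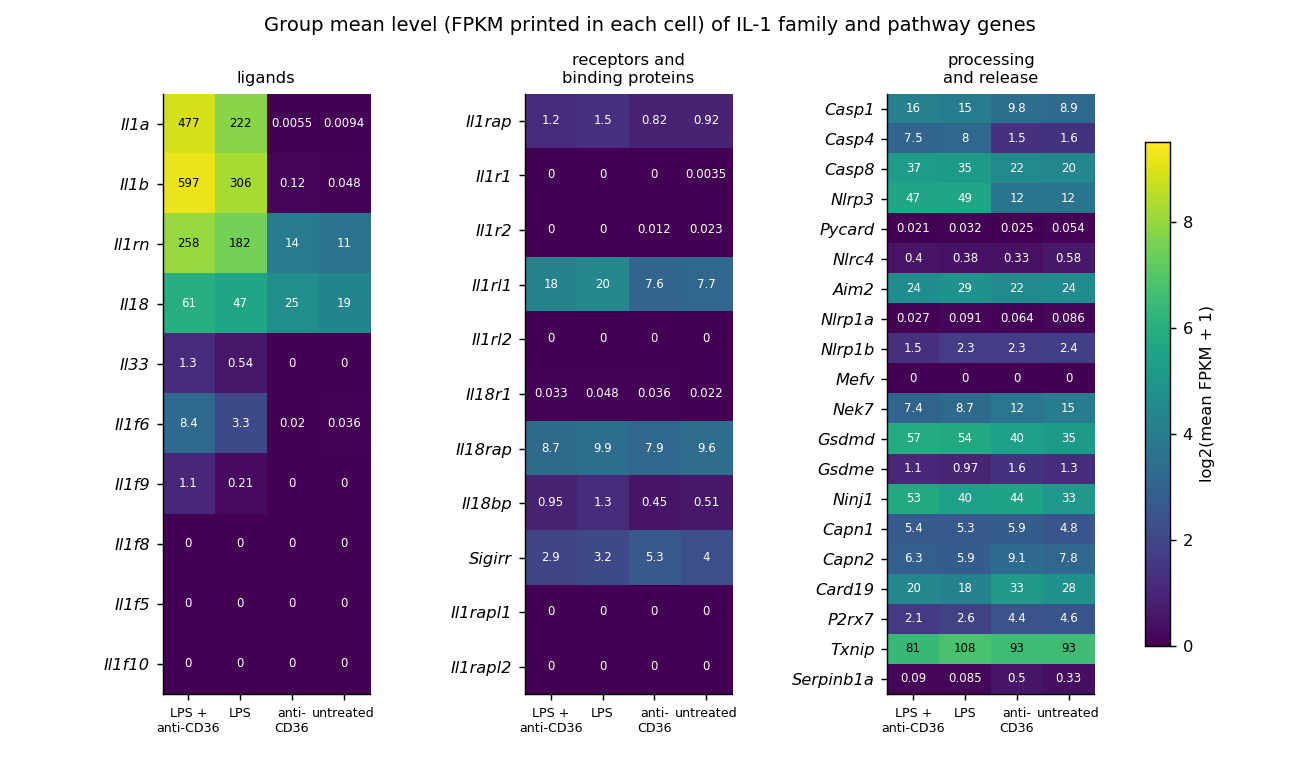
Mean FPKM per group, printed in each cell and coloured by log2(mean FPKM + 1), for listed ligands, receptors and binding proteins, and processing and release genes. Columns run LPS+anti-CD36, LPS, anti-CD36 and untreated. Il1a, Il1b, Il1rn and Il18 are the brightest ligands with LPS, while Il1r1 and Pycard are at or near 0 in every group.

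Of 19 genes of IL-1 receptor signalling, which LPS signalling through TLR4 shares, 17 were tested and 1 was called between LPS+anti-CD36 and LPS, against 15.5% of all genes. It was Irak3, an inhibitory IRAK, at 6.05, 6.89 and 7.70 FPKM with LPS+anti-CD36 and 3.92, 5.04 and 4.93 FPKM with LPS. It was higher by 0.49 on the log2 scale (adjusted p = 0.0227), and the adjusted p was 0.0787 without LPS+anti-CD36 replicate 2, 0.0828 without replicate 3 and 0.05 without LPS replicate 2. It was 0.155 with TPM scaling, 0.0608 with 0.1 FPKM added and 0.0505 with no filter. With LPS against untreated cells 3 rose and 4 fell, against 16.6% and 33.1% of all genes, among them Irak2 (2.35, adjusted p = 1.53e-09), Irak3 (1.42, 1.74e-06), Peli1 (1.14, 3.46e-05) and Irak1 (-0.39, 0.00042).

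Of 14 genes known to act on Il1b transcription or mRNA decay, 13 were tested, and 3 were called between LPS+anti-CD36 and LPS, against 15.5% of all genes. Zfp36l1, which encodes an RNA-binding protein that promotes decay of AU-rich mRNAs, had 20.5, 19.3 and 21.3 FPKM with LPS+anti-CD36 and 41.2, 37.3 and 36.6 FPKM with LPS. Its log2 change was -0.88 (-1.05 to -0.72, adjusted p = 2.64e-05), and its interaction of -0.75 (adjusted p = 0.00402) was called too. Hif1a, a transcription factor that acts on Il1b in activated macrophages, had 40.7, 43.8 and 47.5 FPKM against 53.3, 69.1 and 78.6 FPKM (-0.58, adjusted p = 0.0411). Its change between anti-CD36 and untreated cells was also -0.58 (adjusted p = 0.148, not called), and its interaction was 0.00 (-0.52 to 0.53). Hnrnpd, another AU-rich element binding protein, had 41.4, 40.5 and 40.5 FPKM against 34.6, 34.6 and 31.6 FPKM (0.27, adjusted p = 0.0276). The calls of Hif1a and Hnrnpd ended in 10 and 7 of 22 other settings. Among these was each fit without LPS+anti-CD36 replicate 1, 2 or 3 or LPS replicate 2 or 3, with adjusted p from 0.0701 to 0.156 for Hif1a and from 0.0728 to 0.102 for Hnrnpd. With LPS against untreated cells 8 rose and 1 fell, against 16.6% and 33.1% of all genes, led by Nfkbiz (4.22, adjusted p = 1.1e-10), a nuclear cofactor of NF-κB, and the decay factors Zfp36 (2.95, 2.07e-09) and Zc3h12a (2.90, 2.68e-09).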

How the data were processed

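RNA-seq of 12 RAW264.7 libraries was given as 1 table of FPKM values, computed by the authors and deposited with 1 column per library and 31801 entries. HISAT2 2.0.5 was used, per the submitters' processing notes, which list the builds mm39 and hg38 but not what each served for. The program for counting, the annotation, the strand setting and filters are not given in the sources used here. Without a stated strand setting, reads of Il1a, Il1b, Il18, Il18bp and Il1rap cannot be told apart, where they overlap, from those of genes on the other strand.

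Of entries sharing a symbol the one of highest mean was kept (82 left out). Library depths and fragments were recovered from the steps of the FPKM values at GENCODE M21 exon-union lengths, to a tolerance of 0.005 fragments. Il1b in untreated replicate 2 and Il6 in the 6 libraries without LPS, which repeated another entry, were set missing. Ligand symbols were matched through RefSeq synonyms. Values were analysed as log2(FPKM + 1), with genes at 1 FPKM or more in at least 3 of 12 libraries, in 1 limma 3.58.1 model of the 4 groups (R 4.3.3, intensity trend, Benjamini-Hochberg adjustment per comparison). Ratios, likeness and motifs were computed with Python 3.11.15. The fit was tested on simulated data. Intervals on fragment counts are exact and, like floors of 3 fragments, cover counting error only. Promoters are RefSeq's (GRCm38.p6), with a window found for all 6 genes.

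The 6 genes and the gene lists were chosen with earlier results of these data known. Outside the 6 genes, the text names up to 4 called genes of smallest p per list and comparison, Pycard, Casp1, Casp4, Nlrp3, Il1r1, Il1r2 and Sigirr at any value, and 3 most alike genes per member. Il18r1, Il18rap, Il1f5, Il1f8 and Il1f10 were added after their values were seen. Alternatives were another pseudocount, no filter, other scalings, no trend, 2 groups only, a replicate block, removal of a GC and length trend, the deposited Il1b value, and each library left out.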

Additional observations from a re-analysis of the deposited data

Results flagged for a closer look

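On the log2(FPKM + 1) scale, the LPS change differed between cells with and without the antibody, by the interaction term of the limma model, for 5 of the genes named. The interaction was 1.12 for Il1a, 0.86 for Il1b, 1.19 for Il1f6, 0.81 for Il1f9 and -0.75 for Zfp36l1. Il1a, Il1b, Il1f6 and Il1f9 were at or near 0 FPKM in every library without LPS, where the added 1 FPKM weighs most. With TPM scaling the calls of Il1a (adjusted p = 0.068) and Il1b (0.24) ended, and with 0.1 FPKM added those of Il1b (0.775), Il1f6 (0.124) and Il1f9 (0.0607). The call of Zfp36l1 held in all 21 other settings.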

How the results depend on the processing

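Across 22 other settings, the direction of Il1a, Il1b, Il1rn and Il18 held in LPS+anti-CD36 versus LPS, LPS versus untreated and LPS+anti-CD36 versus anti-CD36, and of these calls only that of Il18 in LPS+anti-CD36 versus LPS ended, in the 2 settings named above. The change of Il1a in LPS+anti-CD36 versus LPS ran from 0.97 to 1.27 and that of Il1b from 0.84 to 1.02. For anti-CD36 versus untreated, 0 members were called as reported, 2 with a replicate block, 1 with the GC and length trend removed, 2 with both, and 0 to 1 with a library left out. For the interaction 2 were called, 1 with 0.1 FPKM added and 0 with TPM scaling.

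Counts over all genes moved more. For LPS+anti-CD36 versus LPS they were 1592, 940 with 2 groups only, 3646 with a replicate block, 2496 with GC and length removed, 3626 with both and 583 to 3980 with a library left out. For anti-CD36 versus untreated they were 35, 16 with TPM scaling, 0 with 2 groups only, 1164, 432 and 990 with the block, GC and length, and both, and 1 to 131 with a library left out. For the interaction they were 132, then 212, 384 and 533, and 77 to 161. Called genes that were higher made up 47.4% in LPS+anti-CD36 versus LPS and 32.9% with TPM scaling, 33.4% in LPS versus untreated and 50.7% with median-of-ratios scaling, 34.2% in LPS+anti-CD36 versus anti-CD36 and 50.3% with that scaling, 38.6% in the interaction and 26% with TPM, and 42.9% in anti-CD36 versus untreated, 68.8% with TPM and 32.4% with median-of-ratios scaling. The scalings moved the median change of all genes by over 0.1 in 3 comparisons, to -0.09 with TPM against 0.02 in LPS+anti-CD36 versus LPS, and with median-of-ratios to -0.01 against -0.14 in LPS versus untreated and to -0.01 against -0.12 in LPS+anti-CD36 versus anti-CD36.

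Signs turned for small changes that passed no threshold. In anti-CD36 versus untreated Il1a was at 0.03 with GC and length removed and with the block added, and ranged from -0.01 to 0.01 with a library left out. Il1rap was at 0.19 there and at 0.13 in LPS+anti-CD36 versus LPS with GC and length removed, with or without the block. With a library left out, Il18bp ranged from -0.20 to 0.09 in anti-CD36 versus untreated and the interaction of Il18 from -0.07 to 0.04.

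The labels do not say what a replicate number marks, so the numbers were not used as a pairing. Of 18 same-numbered pairs of libraries 10 correlated by over 0.1 in their deviations from the group means. Every pair of replicate 1 did (0.45 to 0.78), while pairs of replicate 2 ran from -0.32 to 0.43 and of replicate 3 from -0.07 to 0.81. The main fit leaves such shared deviations in its spread. With the replicate block Il18 (adjusted p = 0.021) and Il1rn (0.0245) were called in anti-CD36 versus untreated, and Il18bp (0.0134) in LPS+anti-CD36 versus anti-CD36, as with the GC and length trend also removed (0.0141, 0.0193 and 0.0119). The causes of these moves were not tested. Precision is limited by 3 libraries per group and, for Il1a and Il1b without LPS, by 0 to 10 fragments per library.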

Other observations

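Around the IL-1 genes on chromosome 2, neighbours within 100 kb took other levels. Ckap2l, beside Il1a, averaged 6.37 FPKM with LPS+anti-CD36, 7.44 with LPS, 18.1 with anti-CD36 and 19.2 untreated. Il1bos, an antisense transcript that shares 1243 bases of span with Il1b, averaged 1.04, 1.13, 0.0266 and 0.00207 FPKM in the same order, and Gm14023, which overlaps Il1a, 0.743, 0.898, 0.0461 and 0.0684 FPKM. Slc20a1, within 100 kb of Il1a, averaged 27, 24.9, 12.4 and 12.9 FPKM. Among the neighbours of Il1rn, Il1f5 and Il1f10 were listed at 0 throughout, and Psd4 averaged 0.673, 0.539, 0.427 and 0.449 FPKM. These genes were chosen by position, and none of these values was tested.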
